A study of Homo sapiens with 15 samples.

Results

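The comparison described here sets HuCC-A1 tumors against EGI-1 tumors across the whole transcriptome, outside the matrix, EMT, Notch and stemness genes. It rests on 10 of the 15 tumors of the series, 5 of each model, which were chosen by their labels. HuCC-A1 is a human intrahepatic and EGI-1 a human extrahepatic cholangiocarcinoma (CCA) cell line. All 10 were cell line-derived xenograft (CDX) tumors in NRG mice (NOD Rag1-/- IL2Rgc-/-), which lack T, B and NK cells and still have myeloid cells, endothelium and stroma. All mice received PBS, the vehicle, intraperitoneally once per week, over 6 weeks in the HuCC-A1 model and over 4 weeks in the EGI-1 model. The study sets HuCC-A1 tumors, as high responders to a claudin-1 antibody, against EGI-1 tumors, as low responders. Each model is 1 cell line, so line, site of origin, response class and duration of treatment cannot be told apart. The 5 HuCC-T1 tumors, of another intrahepatic CCA line, entered the same fit and are given as a further reference point.

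The bile duct epithelium from which CCA arises develops from hepatoblasts inside the liver and from foregut endoderm outside it, and secretes bicarbonate and fluid through dedicated channels and carriers. CCA lines carry different sets of active lineage programs, and tumor lines commonly activate germline genes, many of which lie on the X chromosome. Metabolic genes often come as isoforms of a single reaction step, such as the lactate dehydrogenases LDHA and LDHB or the glucose transporters of the SLC2 family, of which a cell may use different members.

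Of 58735 genes in the count table, 41337 had a count in these 10 tumors and 21019 passed the filter on low counts. HuCC-A1 tumors had higher levels of 6174 genes and lower levels of 5473 genes by the quasi-likelihood test of edgeR at a Benjamini-Hochberg adjusted p of 0.05. That is 29.4% higher, 26.0% lower and 55.4% in either direction, the background against which every count of members below is to be read. The median log2 fold change of all genes tested was 0.06. A called difference of at least 2-fold was found for 7663 genes (4258 higher, 3405 lower), and a log2 difference of at least 5 for 1206 genes (805 higher, 401 lower). Protein-coding genes were nearly balanced, with 4559 higher and 4380 lower of 14863 tested. Long non-coding RNA (lncRNA) genes were called higher in 27.6% and lower in 17.6% of 4044 tested, with a median of 0.27.

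**Figure D1:**
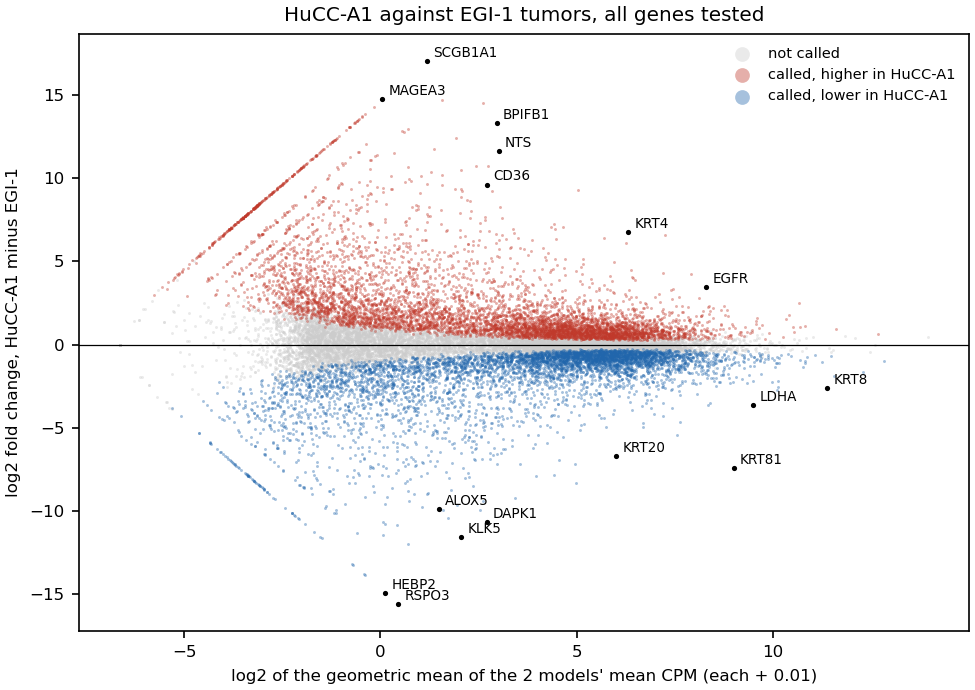
Log2 fold change of HuCC-A1 against EGI-1 tumors (vertical) against the log2 of the geometric mean of both models' mean CPM (horizontal, where CPM is a gene's count scaled to a common library total), with 1 point per gene tested, colored by the edgeR call. Genes of chromosome Y and XIST are not drawn. The straight diagonal edges are genes without a count in 1 of the models, such as SCGB1A1 and MAGEA3 at the top and HEBP2 and RSPO3 at the bottom, while KRT81, LDHA and EGFR differ at high levels.

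Depth was between 20001412 and 33585265 counts in the HuCC-A1 and between 34239460 and 44067878 counts in the EGI-1 tumors. All 20 markers fixed for biliary and epithelial cells had counts in both models, and their summed level was 9688 to 11898 CPM in HuCC-A1 and 17642 to 29021 CPM in EGI-1 tumors. Of the 18 that were tested, 4 were called higher and 9 lower in HuCC-A1, with a median log2 fold change of -1.24. The summed levels of fibroblast, leukocyte and endothelial markers were higher in HuCC-A1 tumors, while single markers went both ways. The summed fibroblast markers reached 431 to 955 against 76.6 to 129 CPM (7 of 11 tested called higher, 1 lower), mostly through COL3A1 (638 ± 245 against 9.28 ± 8.26 CPM, mean ± SD, n = 5 each), while COL1A1 was lower at 17.5 ± 4.43 against 84.5 ± 18.6 CPM. The macrophage and leukocyte markers reached 142 to 304 against 36.5 to 52.3 CPM (4 of 8 tested higher, 2 lower), with C1QA and C1QB without a count in both models. Their median log2 fold change was 1.66, and it was -1.02 with at least 10 counts asked of each library. The endothelial markers reached 39.0 to 49.7 against 14.1 to 23.3 CPM (5 of 8 higher, 1 lower). Erythroid markers stayed at or below 1.96 CPM, and muscle and adipocyte markers overlapped between the models, at medians of 35.8 against 28.0 CPM and up to 75.9 against 45.6 CPM (0 of 5 tested higher, 1 lower, with a median log2 fold change of -0.32). With at least 10 counts asked of each library, this median was 0.66. The part of host cells in the results below was not tested. In such bulk tissue, fewer cells of a type and less RNA per cell cannot be told apart.

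The strongest differences were of the kind present against absent, and SCGB1A1 had the highest log2 fold change of the protein-coding genes named. SCGB1A1, the club cell secretory protein (chromosome 11, 62405103 to 62423195), was at 338, 235, 873, 511 and 654 CPM in the 5 HuCC-A1 tumors and had no count in any EGI-1 tumor. It was thus at least 31795-fold higher, taking 3 counts over the 5 EGI-1 tumors as the floor for this and the other lower bounds (edgeR adjusted p = 3.72e-08). BPIFB1, a secreted protein of airway mucosa, was at 1004, 413, 1146, 521 and 641 CPM and at most at 0.151 CPM in EGI-1. The models were far apart for both genes, although the HuCC-A1 tumors differed among themselves by more than 2-fold. Both were also low in HuCC-T1 tumors, at medians of 0.247 and 0.654 CPM, so they set HuCC-A1 apart from both other lines. MSMB, a secreted mucosal protein, followed the same pattern at 39.8 ± 23.3 CPM against 1 count in all EGI-1 tumors, and CHI3L1, a chitinase-like glycoprotein, at 34.0 ± 19.8 CPM against none.

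Cancer-testis genes, which are normally active in germ cells and silent in other tissues, formed the list with the largest median. MAGEA3 was at 89.2, 133, 105, 91.8 and 114 CPM in HuCC-A1 tumors, MAGEA6 at 115, 125, 103, 92.5 and 112 CPM, and MAGEA1 at 43.4, 71.4, 32.9, 36.3 and 34.5 CPM. None of the 3 had a count in any EGI-1 tumor, and none was above a median of 0 CPM in HuCC-T1. MAGEA3 and MAGEA6 are near-identical copies, so how reads were divided between them is uncertain. Of 128 genes on the list, 69 had a count and 22 were tested, of which 15 were higher and 3 lower, with a median log2 fold change of 7.12 (5.51 with genes without counts at their lower bound). When every library had to hold 10 or more counts of a gene, the median was -0.01. The list also had members that went the other way. MAGEB17 was at 5.22 to 14.2 CPM in EGI-1 and at most 0.153 CPM in HuCC-A1, and IGF2BP1, an RNA-binding protein of fetal tissue, was at 63.6 ± 5.86 CPM in EGI-1 and 0.548 ± 0.291 CPM in HuCC-A1.

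Receptors, enzymes and intracellular proteins made up the rest of the 15 highest protein-coding genes. RXFP1, the receptor of relaxin, was at 30.4 to 94.9 CPM in HuCC-A1 and without a count in EGI-1. Such a pattern was also found for TP53I11 (mean 51.7 CPM), the receptor phosphatase PTPRQ (46.3 CPM), the retrotransposon-derived genes RTL8C (41.1 CPM) and RTL8A (40.2 CPM), the glutathione transferase GSTA1 (39.3 CPM), CSMD1 (33.3 CPM) and the ubiquitin ligase adaptor KLHL13 (33.2 CPM). BCHE, which hydrolyzes choline esters, was at 109 ± 25.8 CPM and had 2 counts in all EGI-1 tumors, a ratio of 9969 (95% counting interval 2760 to 82318). GSTA1 and GSTA2, and RTL8A and RTL8C, are close paralogs that may share reads.

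In the opposite direction, RSPO3, a secreted enhancer of Wnt signaling, was at 228, 171, 214, 160 and 168 CPM in EGI-1 tumors and had no count in any HuCC-A1 tumor. It was at least 9384-fold lower in HuCC-A1 (edgeR adjusted p = 2.07e-12) and was at 0 CPM in the median HuCC-T1 tumor as well, so that EGI-1 was the only one of the 3 lines with this transcript at a median above 0. KLK5, a kallikrein protease of skin, was at 364, 193, 156, 222 and 146 CPM in EGI-1 and at most 0.129 CPM in HuCC-A1. DAPK1, a death-associated kinase, was at 197 to 297 CPM in EGI-1 and at most 0.322 CPM in HuCC-A1, and its HuCC-T1 median of 252 CPM lay within the EGI-1 range. The same side held GABRE, a subunit of the GABA-A receptor (95.3 CPM), GALNT14, which starts O-glycans (47.8 CPM), the glutaminyl cyclase QPCT (42.5 CPM) and BEX3 (26.8 CPM), each with 3 or fewer counts over the 5 HuCC-A1 tumors. Of these 4 genes, the HuCC-T1 medians were 175, 28.4, 35.7 and 34.3 CPM.

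**Figure D2:**
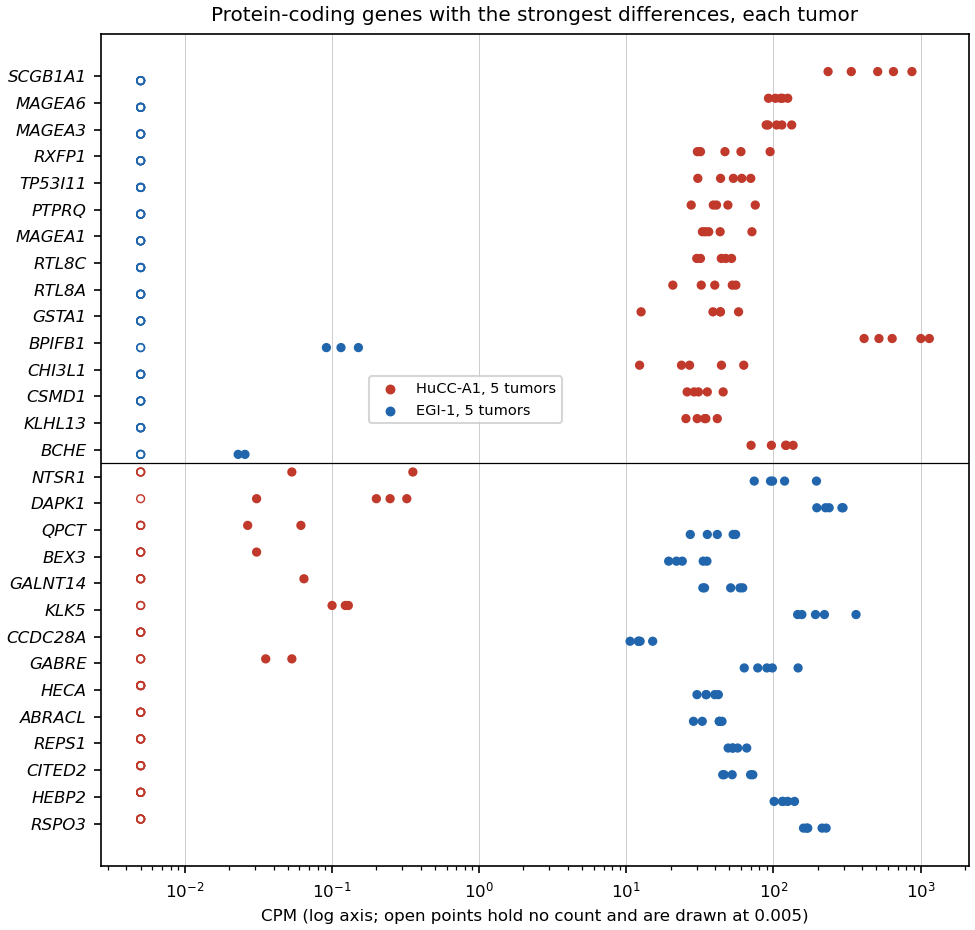
CPM (log axis) in each of the 5 HuCC-A1 (red) and 5 EGI-1 (blue) tumors for the 15 highest and 14 of the 15 lowest protein-coding genes by log2 fold change, above and below the line, with open points for tumors without a count. Genes were chosen without overlap between the models, and within the higher model the tumors lie close together except for genes such as SCGB1A1 and GSTA1, which spans 12.6 to 57.9 CPM.

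A gene was called near absent in a model when it held at most 3 counts over its 5 tumors and at least 10 CPM in each tumor of the other model. By this rule 48 genes were near absent in EGI-1 (41 protein-coding, 4 lncRNA, 3 of other classes, 31 without any count) and 15 in HuCC-A1 (all protein-coding, 7 without any count). The matrix, EMT, Notch and stemness sets hold 4 of the 48 and 1 of the 15, which are not named. A HuCC-T1 median of at least 1 CPM was found for 16 of the 48 and 13 of the 15, but 6 of these 13 are neighbors on chromosome 6, and the difference was not tested. Those of the 48 that HuCC-T1 shared with HuCC-A1 included MGMT, which removes alkyl groups from guanine (29.3 ± 4.42 CPM in HuCC-A1, 3 counts in EGI-1, 15.2 CPM in the median HuCC-T1 tumor), and the monocarboxylate carrier SLC16A7 (27.9 ± 7.32 CPM, 1 count, 9.46 CPM). X-linked genes made up 13 of the 41 protein-coding genes near absent in EGI-1 (31.7%) and 2 of the 15 near absent in HuCC-A1 (13.3%), against 496 of 14855 protein-coding genes tested outside chromosome Y (3.34%). Some of these 13 are neighbors, such as RTL8A and RTL8C, or near-identical copies, such as MAGEA3 and MAGEA6. They are thus not 13 separate observations, and the excess was not tested.

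Promoter sequence was compared for these genes because CG dinucleotides are the sites of DNA methylation and because TATA boxes mark many tissue-restricted genes. Windows of 250 bases before and 50 bases after the start were taken from RefSeq (GRCh38.p14), and 25 of the 41 and 14 of the 15 genes had one. The ratio of observed to expected CG was at least 0.6 in 12 of 25 (48.0%) of the genes near absent in EGI-1, in 9 of 14 (64.3%) of those near absent in HuCC-A1, and in 76.9% of the 11575 protein-coding genes tested with a window. A TATAAA, searched on both strands, was in 6 of 25 (24.0%), in 0 of 14, in 746 (6.44%) of the 11575, and in 3264 of all 27305 windows of that length. Of the 15 genes near absent in HuCC-A1, 6 are neighbors on chromosome 6, so their windows are not separate observations. Their CG ratios were 0.79 (CCDC28A), 0.84 (REPS1), 0.80 (HECA), 0.92 (CITED2), 0.46 (HEBP2) and 0.33 (ABRACL). The share of CG-rich windows among genes near absent in EGI-1 depended on the level asked of HuCC-A1, with 75.0% at a minimum of 20 CPM. The 250 bases before the start are printed for 4 of them that span both kinds, with CG and TATAAA in capitals. The MAGEA3 window (chrX:152698544-152698793, plus strand) was equal to that of MAGEA6 (chrX:152769690-152769939, minus strand) at 250 of 250 bases and held 15 CG.
MAGEA3 and MAGEA6: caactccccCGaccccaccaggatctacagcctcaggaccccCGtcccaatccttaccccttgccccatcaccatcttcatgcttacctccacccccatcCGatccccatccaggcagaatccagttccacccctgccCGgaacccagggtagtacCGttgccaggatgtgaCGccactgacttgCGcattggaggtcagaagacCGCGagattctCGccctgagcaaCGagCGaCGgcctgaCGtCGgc
RTL8A (chrX:135052136-135052385, minus strand) held 21 CG and no TATAAA.
RTL8A: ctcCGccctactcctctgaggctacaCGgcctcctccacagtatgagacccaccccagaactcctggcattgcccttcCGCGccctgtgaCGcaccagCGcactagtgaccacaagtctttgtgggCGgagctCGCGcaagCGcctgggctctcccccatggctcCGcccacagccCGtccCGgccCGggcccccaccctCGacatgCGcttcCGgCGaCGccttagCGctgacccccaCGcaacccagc
GSTA1 (chr6:52803817-52804066, minus strand) held 1 CG, with a TATAAA starting 30 bases before the start.
GSTA1: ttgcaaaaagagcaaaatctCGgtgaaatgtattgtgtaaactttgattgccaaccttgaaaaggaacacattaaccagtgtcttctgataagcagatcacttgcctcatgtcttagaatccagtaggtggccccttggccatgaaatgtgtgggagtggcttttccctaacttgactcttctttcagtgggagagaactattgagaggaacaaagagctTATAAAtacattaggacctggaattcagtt
CHI3L1 (chr1:203186705-203186954, minus strand) held 6 CG, with a TATAAA starting 27 bases before the start.
CHI3L1: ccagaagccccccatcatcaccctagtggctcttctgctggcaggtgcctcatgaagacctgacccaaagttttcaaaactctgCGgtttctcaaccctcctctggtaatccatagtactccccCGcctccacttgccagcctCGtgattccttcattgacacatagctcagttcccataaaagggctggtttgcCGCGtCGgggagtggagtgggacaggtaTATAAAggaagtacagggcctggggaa
Genes without a count in EGI-1 tumors thus had windows as different as those of RTL8A and GSTA1. Whether these promoters are methylated was not measured.

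Several of these genes were neighbors. Runs of at least 3 neighboring genes with a mean of at least 1 CPM in either model and at most 3 counts in 1 of them were sought after the data had been seen. The longest run was on chromosome 6 (138403531 to 140852924) and held 9 genes without a count in any HuCC-A1 tumor, from HEBP2 to AL035446.1. HEBP2, a heme-binding protein, was at 139, 116, 115, 125 and 101 CPM in EGI-1 tumors, REPS1, of endocytosis, at 65.8, 49.2, 52.8, 52.9 and 57.1 CPM, and CITED2, a partner of the coactivators CBP and p300, at 69.9, 45.2, 46.2, 72.4 and 52.4 CPM. All 3 were at 0 in the 5 HuCC-A1 tumors, and HuCC-T1 medians were 37.3, 32.0 and 33.1 CPM. ABRACL, HECA, CCDC28A and NHSL1 followed. From HEBP2 to CITED2 the annotation holds 19 genes, and all 19 had no count in HuCC-A1, against 2 in EGI-1 and 3 in HuCC-T1. These genes summed to 0 counts in HuCC-A1, 60876 in EGI-1 and 22199 in HuCC-T1. Levels returned on both sides, with ARFGEF3 at 10.7 against 23.7 CPM before the run and VTA1 at 46.4 against 53.4 CPM after it.

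In EGI-1 tumors, 10 shorter runs held 37 genes. On chromosome 9 (21802543 to 22824213) a run of 5 genes began with MTAP, which salvages methylthioadenosine. MTAP was at 25.4, 38.3, 27.3, 32.8 and 35.5 CPM in HuCC-A1 tumors and had 2 counts in all EGI-1 tumors, and DMRTA1 and the lncRNA LINC01239 at the far end were at 18.7 ± 4.07 and 12.6 ± 2.35 CPM against no count. The cell cycle inhibitors CDKN2A and CDKN2B between them were not among the run's genes, because they were without counts in HuCC-A1 tumors too. CDKN2A had 0 counts in both models and 26358 in HuCC-T1 tumors, and CDKN2B had 0, 2 and 29970. The 19 annotated genes that lie wholly within the bounds of the run summed to 19 counts in EGI-1, of which the pseudogene CLIC4P1 held 15 and MTAP and CDKN2B the others, and to 9964 counts in HuCC-A1. In HuCC-A1, CDKN2A and CDKN2B lay between genes with counts. Before the run, IFNE was also lower in EGI-1 than in HuCC-A1, at 0.731 against 11.8 CPM. After it, AL445623.2 was at 4.96 CPM in EGI-1 and 0.750 CPM in HuCC-A1. On chromosome X (134990938 to 135052196), SMIM10, RTL8B, RTL8C and RTL8A had 3 or fewer counts in EGI-1, whereas their neighbors MOSPD1 (20.4 CPM in EGI-1, 19.7 CPM in HuCC-A1) and ZNF75D (20.6 and 25.2 CPM) had counts in both models. All 4 were above 1 CPM in HuCC-T1. A further X-linked run (152166234 to 152753884) joined GABRA3 with MAGEA3, CSAG2, MAGEA2B and MAGEA2, none of which reached 1 CPM in HuCC-T1. The genes beside this run, MAGEA10 (0.112 CPM in EGI-1, 31.0 CPM in HuCC-A1) and CSAG3 (0.0366 and 13.1 CPM), were also low in EGI-1. The ends of this run thus follow from the limit of 3 counts. Genomic DNA was not analysed here.

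**Figure D3:**
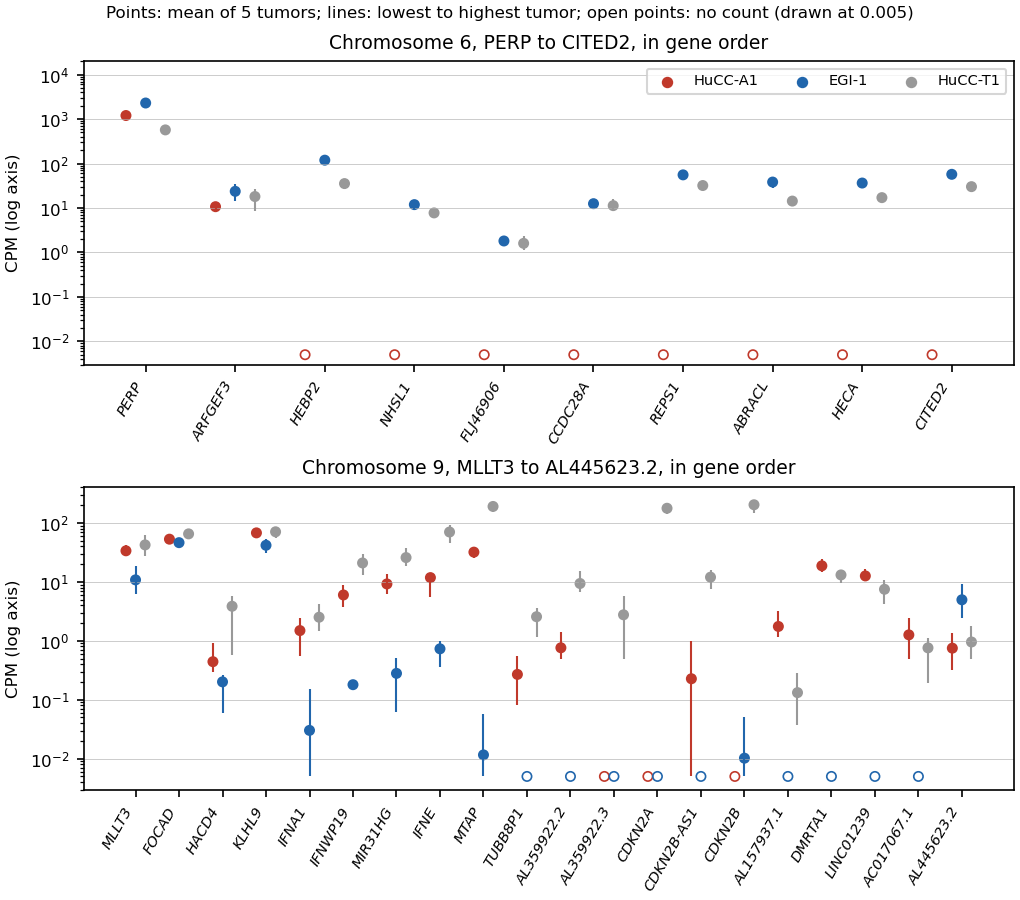
CPM (log axis) of genes with at least 1 CPM in any of the 3 models, in gene order along chromosome 6 (top) and chromosome 9 (bottom), as the mean of 5 tumors with a line from the lowest to the highest tumor. On chromosome 6 the HuCC-A1 points (red) are open, without a count, from HEBP2 to CITED2, and on chromosome 9 the EGI-1 points drawn (blue) stay at or below 0.0116 CPM from MTAP to AC017067.1.

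By difference in mean CPM, the genes named were keratins, EGFR and genes of other functions. KRT81, a hair keratin, was at 10355, 6923, 6289, 5688 and 4591 CPM in EGI-1 tumors and at 36.8, 95.7, 22.2, 23.4 and 17.2 CPM in HuCC-A1 tumors, a 199-fold difference without overlap (edgeR adjusted p = 7.93e-09). EGFR, the epidermal growth factor receptor, was at 1410, 925, 747, 995 and 1106 CPM in HuCC-A1 and at 89.1, 88.1, 94.7, 102 and 108 CPM in EGI-1, 10.7-fold higher (adjusted p = 3.88e-10). The EGI-1 tumors thus varied little for EGFR, and the HuCC-T1 median of 845 CPM lay within the HuCC-A1 range. KRT4, a keratin of moist squamous epithelium, was 103-fold higher at 825 ± 487 CPM, and complement C3 was 2.98-fold higher at 1361 ± 382 CPM. KRT5, a basal keratin, was 2.96-fold higher, but its EGI-1 tumors ranged from 275 to 1849 CPM, overlapping HuCC-A1, and the call was lost without EGI-1 replicate 2, 4 or 5 (adjusted p = 0.0547, 0.0565 and 0.0531). The chaperone HSP90AA1 was 1.72-fold higher. Lower in HuCC-A1 were the elongation factor EEF1A1 (5162 ± 965 against 10219 ± 1039 CPM), cytoplasmic actin ACTG1 (3.74-fold) and the calcium-binding protein S100A6 (4.61-fold).

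Metabolic genes did not move as a block. Glycolysis and sterol synthesis were the lists with the largest excess of genes lower in HuCC-A1, and phase I metabolism of xenobiotics the list with the largest excess of genes higher. Of 35 glycolysis and pentose phosphate genes tested, 21 were lower and 5 higher, with a median log2 fold change of -0.68. LDHA, which turns pyruvate into lactate, was at 2965, 2134, 2689, 2843 and 2155 CPM in EGI-1 and at 207, 281, 154, 170 and 225 CPM in HuCC-A1 tumors, 12.8-fold lower (edgeR adjusted p = 1.79e-10). Its paralog LDHB was at 13.5, 12.1, 8.58, 6.76 and 10.4 CPM in HuCC-A1 and without a count in the 5 EGI-1 tumors and in the median HuCC-T1 tumor. LDHB shares 33.4% of its exon bases with another gene on the same strand, which may take reads from it. LDHD, of D-lactate, was 11.2-fold higher in HuCC-A1. The hexokinase-like HKDC1 was at 44.6 to 86.6 CPM in EGI-1 and at most 1.07 CPM in HuCC-A1, the gluconeogenic enzyme FBP1 9.77-fold lower, and the muscle-type phosphofructokinase PFKM 2.50-fold higher.

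Around the mitochondrion, PDK1 and PDK4, kinases that switch off pyruvate dehydrogenase, lay in opposite order between the models. The highest and lowest members of each list were named, so such an order follows from the choice. Other kinases of this family are not given. PDK1 was at 44.8, 42.3, 52.5, 73.5 and 50.7 CPM in EGI-1 and 4.70 to 8.73 CPM in HuCC-A1, whereas PDK4 was at 36.3, 24.4, 41.1, 33.4 and 31.6 CPM in HuCC-A1 and 1.07 to 3.21 CPM in EGI-1. Neither overlapped between the models. The mitochondrial malic enzyme ME3 was 65.5-fold lower in HuCC-A1. Of 80 nuclear subunits of oxidative phosphorylation, 22 were lower and 13 higher, with a median of -0.16. Among them COX7B2 and COX6B2, the testis-type cytochrome oxidase subunits, went in opposite directions, with COX7B2 at 5.81 ± 1.88 CPM and 1 count in EGI-1 and COX6B2 12.1-fold lower. The 13 mitochondrially encoded subunits had 4 higher and 1 lower. Mitochondrial genes took 4.50 to 11.3% of counts in HuCC-A1 (mean 6.60%) and 3.94 to 5.64% in EGI-1 (mean 4.75%), a difference of 1.85 percentage points within the spread (two-sided exact permutation test, p = 0.143, adjusted over 4 gene classes 0.286). The highest tumor, HuCC-A1 replicate 1, carried the calls of some of these genes, and MT-CYB was at a log2 fold change of 0.49 without it (adjusted p = 0.0572) against 0.91 with it.

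Sterol and fatty acid synthesis had 27 lower and 7 higher of 40 tested, with a median of -0.62. FDFT1, squalene synthase, was at 381, 311, 302, 267 and 287 CPM in EGI-1 and 41.0, 37.1, 32.7, 35.5 and 39.0 CPM in HuCC-A1 tumors, 8.41-fold lower (edgeR adjusted p = 1.84e-11). The sterol carrier STARD4 was 7.91-fold lower. The desaturases FADS3 and SCD5 were 6.49-fold and 2.89-fold higher. Fatty acid uptake, binding and oxidation had 14 higher and 18 lower of 50. Within it, CD36, the scavenger receptor that takes up fatty acids, was at 158, 62.2, 220, 268 and 209 CPM in HuCC-A1 and at most 0.438 CPM in EGI-1, a 779-fold difference, whereas ACSL5, which activates fatty acids, was 29.4-fold lower. For eicosanoids, PTGS1 (cyclooxygenase 1) was at 21.5 to 140 CPM in HuCC-A1 and at most 0.671 CPM in EGI-1, and ALOX5 (5-lipoxygenase) at 65.3 to 96.6 CPM in EGI-1 and at most 0.184 CPM in HuCC-A1. The phospholipase PLA2G16 was 13.8-fold lower.

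Detoxification genes were more often higher in HuCC-A1, with 39 higher and 20 lower of 73 tested phase I genes and a median of 0.80. ADH7, the class IV alcohol dehydrogenase that also oxidizes retinol, was at 34.7, 5.65, 69.0, 59.4 and 53.3 CPM in HuCC-A1 and without a count in EGI-1, at least 2704-fold higher (edgeR adjusted p = 1.71e-06). The carboxylesterase CES1 was at 6.30 to 50.1 CPM against 5 counts in all EGI-1 tumors, and EPHX2, the soluble epoxide hydrolase, at 0.650 to 5.01 CPM against none. HuCC-A1 replicate 2 was the lowest of its group for ADH7, CES1, EPHX2 and GSTA1. MAOB, monoamine oxidase B, and the aldo-keto reductase AKR1E2 were 78.7-fold and 242-fold lower. Phase II and glutathione genes were split, with 17 higher and 19 lower of 50 and a median of 0.06. GSTA1 was higher, while the gamma-glutamyl transferase GGT1 was at 0.547 to 2.50 against 56.3 to 98.1 CPM, heme oxygenase HMOX1 18.1-fold lower, and the sulfotransferase SULT1C2 had 1 count in all HuCC-A1 tumors against 4.01 ± 2.29 CPM. NNMT, which methylates nicotinamide, was 61.5-fold higher, and QPRT, which makes nicotinic acid mononucleotide from quinolinate, was at 47.0 to 100 CPM in EGI-1 and 0.547 to 1.23 CPM in HuCC-A1. Nucleotide and NAD metabolism had 14 higher and 29 lower of 72, with ADA, adenosine deaminase, 10.2-fold lower.

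Amino acid metabolism had 27 higher and 17 lower of 69, with a median of 0.26. Of genes in or next to the urea cycle, those named differed in both directions, and the other enzymes of the cycle are not given. CPS1, which makes carbamoyl phosphate, was 24.2-fold and ARG2, the mitochondrial arginase, 18.6-fold higher in HuCC-A1, while NAGS, which makes the activator of CPS1, was at 12.5 to 20.3 CPM in EGI-1 and at most 1.26 CPM in HuCC-A1. BCAT1, which transaminates branched-chain amino acids, was 9.99-fold lower. Among 79 genes of glycan synthesis (29 higher, 24 lower), B4GALNT1, the ganglioside GM2 synthase, was at 19.8 ± 2.15 CPM against no count in EGI-1, with 26.7% of its exon bases shared with a gene on the opposite strand. B3GALT5, which builds type 1 chains, was at 211, 212, 276, 216 and 373 CPM in EGI-1 and at most 0.773 CPM in HuCC-A1 tumors, a 601-fold difference, and the sialyltransferase ST3GAL1 was 13.2-fold lower.

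**Figure D4:**
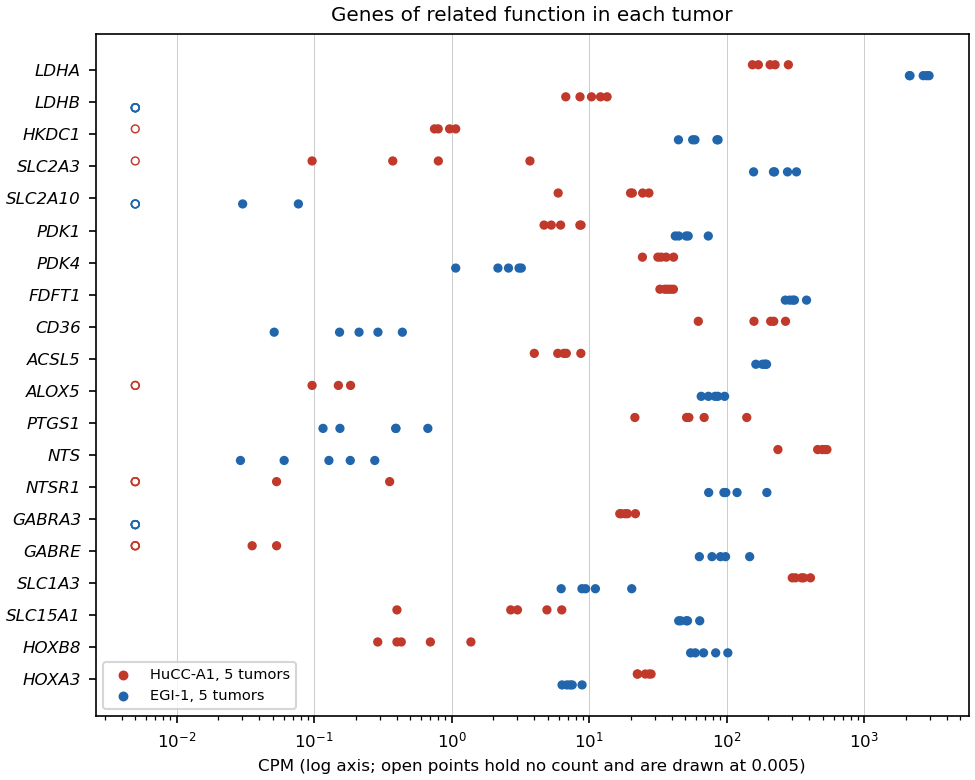
CPM (log axis) in each tumor of both models for genes of related function, among them the lactate dehydrogenases, the pyruvate dehydrogenase kinases PDK1 and PDK4, the eicosanoid enzymes ALOX5 and PTGS1, neurotensin (NTS) and its receptor NTSR1, and the GABA-A receptor subunits GABRA3 and GABRE. The genes were picked from those named, with their values known, so the opposite order of the models within these pairs follows from the choice. Open points are tumors without a count.

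Among carriers, those of amino acids and the ABC transporters were more often higher in HuCC-A1 than lower. Of 41 amino acid carriers tested of 64 listed, 22 were higher and 5 lower, with a median of 0.92, and their summed level was 2881 to 3668 CPM in HuCC-A1 and 1648 to 1740 CPM in EGI-1. SLC1A3, a glutamate and aspartate transporter, was at 363, 407, 316, 300 and 350 CPM in HuCC-A1 and 20.4, 8.86, 9.42, 6.26 and 11.1 CPM in EGI-1 tumors, 31.4-fold higher (edgeR adjusted p = 7.86e-10). SLC38A5, for glutamine, was 118-fold and the proton-coupled SLC36A1 15.5-fold higher. SLC15A1, the intestinal peptide transporter, was at 44.8 to 63.7 CPM in EGI-1 and 0.400 to 6.32 CPM in HuCC-A1, and the proline transporter SLC6A20 was 27.0-fold lower. ABC transporters had 20 higher and 5 lower of 36, with a median of 0.91. Their summed levels overlapped, at 1423 to 1728 CPM in HuCC-A1 and 1347 to 1534 CPM in EGI-1. ABCA8 was 214-fold, ABCB1 (the drug efflux pump P-glycoprotein) 215-fold and ABCA13 340-fold higher, each at most at 0.230 CPM in any EGI-1 tumor. ABCC3, an exporter of organic anions and bile salts, was 4.27-fold lower at 88.0 ± 15.3 against 366 ± 39.9 CPM.

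Sugar carriers were split between members, with 11 higher and 10 lower of 37. SLC2A3, the high-affinity glucose transporter GLUT3, was at 219, 157, 223, 322 and 277 CPM in EGI-1 tumors and 0, 0.800, 0.373, 0.0966 and 3.71 CPM in HuCC-A1 tumors, 232-fold lower (edgeR adjusted p = 1.63e-07). SLC2A10 was 897-fold higher, at 5.95 to 27.2 CPM against at most 0.0768 CPM, and SLC2A9, which carries urate, 31.0-fold higher. The summed level of the sugar, monocarboxylate and citrate carriers was lower in HuCC-A1, at 1169 to 1556 against 2513 to 3071 CPM. Of ion carriers, the sulfate transporter SLC26A2 was 17.8-fold higher and SLC12A2, the sodium, potassium and chloride cotransporter of secretory epithelium, 6.39-fold lower at 65.9 ± 16.3 against 430 ± 118 CPM. The zinc importer SLC39A4 was lower at 24.5 ± 8.09 against 138 ± 47.2 CPM, and SLC17A9, which loads ATP into vesicles, was at 14.1 ± 1.73 CPM in EGI-1 and at most 0.193 CPM in HuCC-A1.

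By genes called, channels were divided nearly evenly, with 17 higher and 18 lower of 47 potassium channels. Of 64 sodium, calcium and chloride channels, 25 were higher and 20 lower. Of 50 TRP, ligand-gated and purinergic channels, 13 were higher and 16 lower. The summed level of each list was lower in HuCC-A1 without overlap. Potassium channels summed to 328 to 395 against 558 to 698 CPM in EGI-1. The sums were 2077 to 2516 against 3452 to 3796 CPM for sodium, calcium and chloride channels. For TRP, ligand-gated and purinergic channels they were 427 to 526 against 714 to 825 CPM. Sums of other lists did not overlap either, so this is not particular to channels. Glycogen genes were lower, at 982 to 1145 against 1437 to 1801 CPM, and phase I genes higher, at 3490 to 4659 against 1908 to 2454 CPM. A sum rests mostly on the members with the highest levels. KCNK2 (9.77 ± 3.08 CPM) and TRPC4 (11.2 ± 1.78 CPM) had no count in EGI-1, while KCNQ1 was 50.1-fold lower, CLIC5 72.4-fold lower and TRPV6, an epithelial calcium channel, had 1 count in HuCC-A1 against 5.36 ± 1.76 CPM. TRPM2 was at 29.8, 28.5, 26.2, 25.7 and 15.4 CPM in EGI-1 and at most 0.123 CPM in HuCC-A1. Its antisense gene TRPM2-AS moved with it, at 11.9 ± 2.25 CPM against 1 count. Of the GABA-A receptor subunits, GABRA3 was at 16.7 to 21.7 CPM in HuCC-A1 and without a count in EGI-1. GABRE was at 63.3 to 147 CPM in EGI-1 with 3 counts in HuCC-A1, and other subunits are not given. AQP5, a water channel of glands and airway, was at 24.0 to 241 CPM in HuCC-A1 and at most 2.24 CPM in EGI-1, and the connexin GJB6 was 13.7-fold lower.

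**Figure D5:**
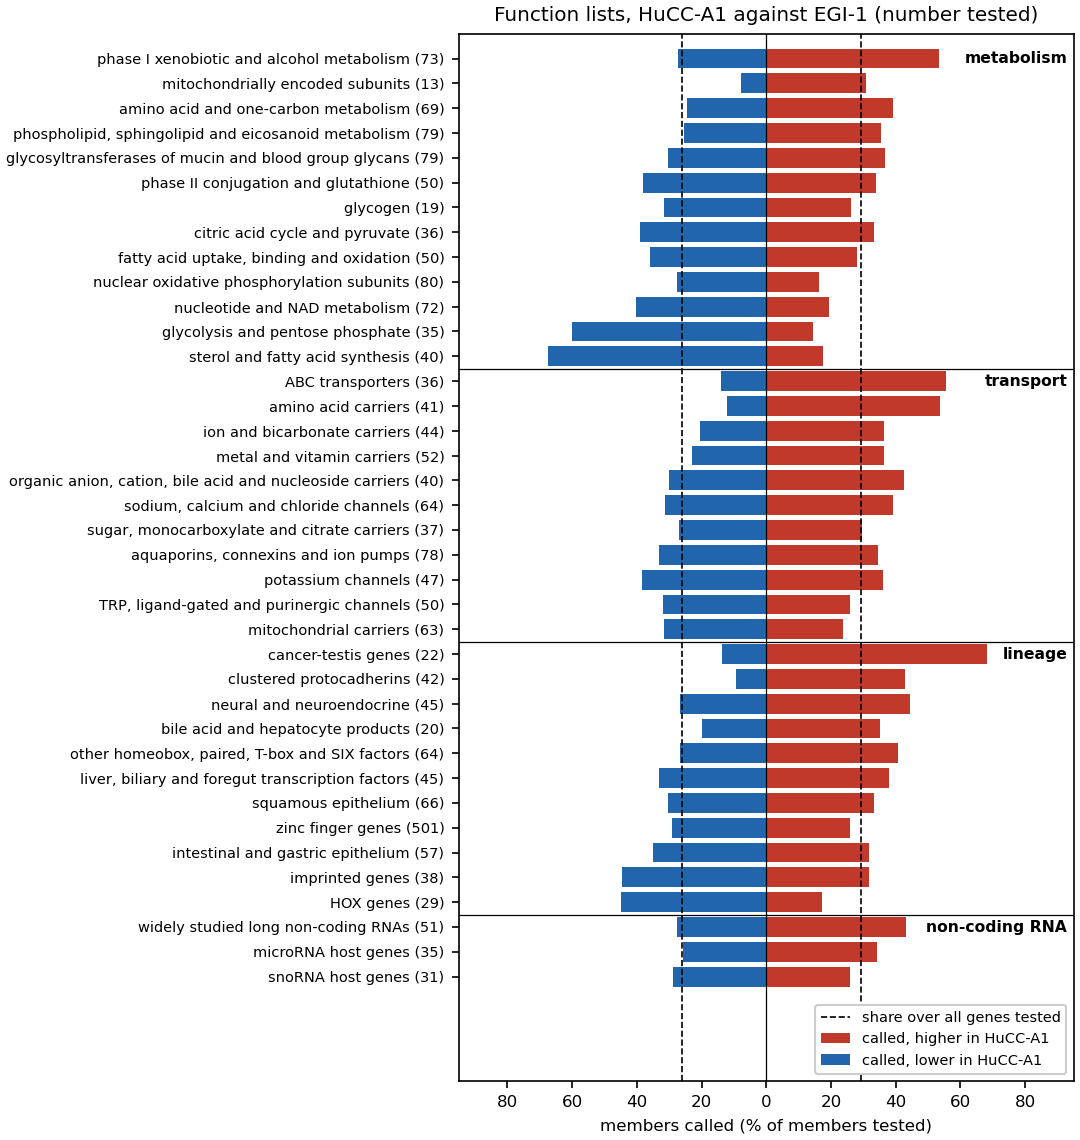
Percentage of the tested members of each function list called higher (red, to the right) or lower (blue, to the left) in HuCC-A1 tumors, with the number tested in brackets and dashed lines at the shares over all genes tested (29.4% and 26.0%). Cancer-testis genes, ABC transporters, amino acid carriers and phase I genes reach farthest to the right, and sterol synthesis and glycolysis farthest to the left.

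Lineage genes pointed in several directions at once. In the squamous list, with 22 higher and 20 lower of 66, DSG3, a desmoglein of basal layers, was at 213, 194, 214, 311 and 240 CPM in HuCC-A1 and 3.54, 0.514, 2.86, 0.320 and 1.41 CPM in EGI-1 tumors, 133-fold higher (edgeR adjusted p = 1.11e-08). SERPINB3 was 103-fold higher. KLK5, KRT81 and CALML5, of outer layers and hair, were on the EGI-1 side. The intestinal and gastric list had 18 higher and 20 lower of 57. KRT20, the intestinal keratin, was at 715, 654, 602, 599 and 715 CPM in EGI-1 and 8.96, 1.90, 5.30, 8.40 and 6.75 CPM in HuCC-A1, and the trypsinogen PRSS3 was 90.7-fold lower. The receptor PIGR, which carries antibodies across epithelia, was 97.3-fold higher at 77.8 ± 34.6 CPM, and the aminopeptidase ANPEP 323-fold higher. Of the cytokeratins of bile ducts, KRT7 was 19.7-fold higher and KRT8 6.32-fold lower in HuCC-A1.

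Liver, biliary and foregut transcription factors had 17 higher and 15 lower of 45. FOXA2, a pioneer factor of endoderm, was at 15.9, 33.3, 9.17, 7.08 and 8.81 CPM in HuCC-A1 and 1.52 to 2.97 CPM in EGI-1, and the nuclear receptor NR5A2 was 9.84-fold higher. PROX1 was 10.6-fold and PDX1, of pancreas and duodenum, 448-fold (95% counting interval 80.4 to 17689) lower, PDX1 at only 2.07 to 3.81 CPM in EGI-1 and 1 count in HuCC-A1. Hepatocyte products had 7 higher and 4 lower of 20, with ceruloplasmin (CP) 53.2-fold higher, SERPINA6, the cortisol carrier, at 6.78 ± 2.28 CPM against no count, and CYP27A1, of bile acid synthesis, 7.15-fold lower. HOX genes, which set position along the body axis, had 5 higher and 13 lower of 29, with a median of -0.57. HOXB8 was at 102, 83.2, 67.9, 54.7 and 59.1 CPM in EGI-1 and 1.38, 0.700, 0.400, 0.290 and 0.430 CPM in HuCC-A1 tumors, and HOXB5 was 49.2-fold lower. HOXA3 went the other way, at 22.4 to 28.2 against 6.35 to 8.88 CPM. Of other homeobox and T-box factors, IRX3 (17.9 ± 3.86 CPM, 1 count in EGI-1) and LHX6 were higher, and DLX3 (42.9-fold) lower.

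Neural genes were higher more often, with 20 higher and 12 lower of 45 tested of 87 listed and a median of 1.19, which was -0.54 with at least 10 counts asked of each library. Neurotensin (NTS), a gut and brain peptide, was at 516, 236, 496, 459 and 536 CPM in HuCC-A1 tumors and at most 0.276 CPM in EGI-1, 3151-fold higher (edgeR adjusted p = 1.7e-09). Its receptor NTSR1 was at 119, 98.6, 95.5, 196 and 74.0 CPM in EGI-1 tumors and at most 0.354 CPM in HuCC-A1 (adjusted p = 2.17e-09). Thus no tumor of either model had high levels of both the peptide and the receptor. NGFR, the low-affinity neurotrophin receptor, was 659-fold and the adhesion molecule NCAM2 735-fold higher, whereas L1CAM was 122-fold and carboxypeptidase E (CPE), which trims peptide hormones, 144-fold lower. SOX21 was at 16.1 to 42.3 CPM in HuCC-A1 and at most 0.320 CPM in EGI-1. The clustered protocadherins, adhesion molecules of neurons, had 18 higher and 4 lower of 42, with a median of 0.71. PCDHGA10 was 55.9-fold, PCDHGB5 273-fold and PCDHA4 714-fold higher, and PCDHGB6 5.90-fold lower, though shared constant exons make the division of reads among these genes uncertain. Imprinted genes, expressed from 1 parental copy, had 12 higher and 17 lower of 38. ZDBF2 (12.1 ± 3.91 CPM) had no count in EGI-1 and NAP1L5 (2.27 ± 0.581 CPM) none in HuCC-A1, while GRB10 was at 25.7 to 47.4 CPM in EGI-1 and at most 0.708 CPM in HuCC-A1. Zinc finger genes were balanced, with 130 higher and 147 lower of 501.

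Of the 48 genes near absent in EGI-1, 4 were lncRNA genes, and of the 15 near absent in HuCC-A1 none was, against 4044 of 21019 genes tested. With a minimum of 5 CPM in the other model, 7 of 73 and 2 of 23 were lncRNA genes. Although lncRNA genes were called higher more often than lower, their share of all counts was 1.66 ± 0.277% in HuCC-A1 and 1.57 ± 0.114% in EGI-1 (SD, n = 5), which did not differ beyond the spread (two-sided exact permutation test, p = 0.524). By the same exact test, pseudogenes took 0.850 against 0.782% (p = 0.103, adjusted 0.286) and ribosomal protein genes 3.65 against 4.08% (p = 0.365, adjusted 0.487). PURPL, a p53-regulated lncRNA, was at 15.3, 12.8, 36.6, 50.9 and 31.1 CPM in HuCC-A1 and without a count in EGI-1, at least 1788-fold higher (edgeR adjusted p = 1.54e-08). AC092375.2 (at least 3462-fold), LINC01579 and FAM230C also had no count in EGI-1. LINC01819 was at 125, 88.8, 113, 114 and 79.2 CPM in EGI-1 tumors and at most 0.531 CPM in HuCC-A1, and PICSAR was at 3.99 to 7.44 CPM in EGI-1 and without a count in HuCC-A1. Several lncRNAs went with the coding gene beside them. SOX21-AS1 had 1 count in EGI-1 and 28.8 ± 8.37 CPM in HuCC-A1, as SOX21 was higher there, and B3GALT5-AS1 (28.6 ± 10.9 CPM) and HOXB-AS3 (28.5 ± 9.69 CPM) had at most 0.213 CPM in any HuCC-A1 tumor, as B3GALT5 and the HOXB genes were lower. HOXB-AS3 shares 30.1% of its exon bases with HOXB genes on the opposite strand. TINCR, known from epidermal differentiation and annotated as protein-coding in GENCODE, was 40.3-fold higher, SNHG14, the host of imprinted snoRNAs, 43.5-fold higher, and LINC00665 111-fold lower.

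MicroRNAs silence messages through bases 2 to 8, the seed, and their host transcripts were measured here, not the mature microRNAs. Of 35 host genes tested, 12 were higher and 9 lower. For the 3 highest and 3 lowest called hosts with a mean of at least 2 CPM in either model, and for 2 that share a seed, a mature sequence is printed from RefSeq (GRCh38.p14) with the seed in capitals.
miR-137-3p: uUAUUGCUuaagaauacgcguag
miR-646: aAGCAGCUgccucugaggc
miR-31-5p: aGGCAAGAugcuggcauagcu
miR-4458: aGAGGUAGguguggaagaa
miR-4500: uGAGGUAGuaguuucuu
miR-503-5p: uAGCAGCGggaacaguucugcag
miR-210-3p: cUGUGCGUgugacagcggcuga
miR-3142: aAGGCCUUucugaaccuucaga
The hosts of the first 5 were higher in HuCC-A1. MIR137HG was at 3.79 to 11.5 CPM against 3 counts in all EGI-1 tumors, MIR646HG at 3.41 to 6.85 CPM against at most 0.320 CPM, and MIR31HG at 8.14, 13.5, 6.26, 8.18 and 9.94 CPM against at most 0.512 CPM in EGI-1. MIR31HG lies on chromosome 9 near the run that begins with MTAP, shares 40.7% of its exon bases with a gene on the opposite strand, and had a HuCC-T1 median of 23.6 CPM. MIR4458HG (log2 fold change 2.36) and MIR4500HG (1.66) carry microRNAs with the same seed, the only one shared among 29 mature sequences of 19 hosts. MIR210HG, host of a microRNA known for its induction by hypoxia, was at 91.0, 58.8, 55.1, 86.7 and 46.9 CPM in EGI-1 and 0.956 to 6.60 CPM in HuCC-A1 tumors, 17.5-fold lower (edgeR adjusted p = 7.37e-07), MIR503HG was 9.64-fold and MIR3142HG 9.94-fold lower. MIR548XHG, below that level at 0.715 ± 0.450 CPM, had no count in EGI-1. CA9, a carbonic anhydrase also known for induction by hypoxia, was at 2.77 to 13.2 CPM in EGI-1 and at most 0.160 CPM in HuCC-A1. CA9 was chosen after its level was seen, and the part of hypoxia in these differences was not tested.

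Replication-dependent histone genes, whose messages mostly lack a poly(A) tail, had 39 higher and 0 lower of 45 tested in HuCC-A1, with a median of 2.18, and 86.7% was the largest share called in 1 direction of any list. At an unadjusted edgeR p under 0.05, by DESeq2 and by limma-voom, 1 gene each was lower, and the median ranged from 2.03 to 2.33 over all settings. They took 0.0515 to 0.113% of counts in HuCC-A1 and 0.0176 to 0.0282% in EGI-1, without overlap, and 0.0310 to 0.0596% in HuCC-T1. Examples were HIST1H2AI (14.2-fold), HIST1H2BF (12.9-fold) and HIST3H2BB (18.3-fold). The part of library preparation in this difference was not tested.

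By chromosome, protein-coding genes of chromosomes 7 and 15 were most often higher in HuCC-A1 and those of chromosomes 11 and 2 most often lower. On chromosome 7, 415 of 696 genes were higher and 101 lower, with a median of 0.79, and on chromosome 15, 271 of 470 were higher and 39 lower, with a median of 0.67. On chromosome 11, 140 of 865 were higher and 402 lower (median -0.51), and on chromosome 2, 135 of 985 were higher and 470 lower (median -0.43). In windows of 50 neighboring genes, the highest median, 1.58, was on chromosome 7 from POMZP3 to HEPACAM2 (76609986 to 93226524), where 42 genes were higher and 1 lower. The lowest, -1.65, was on chromosome 11 from MSANTD4 to PAFAH1B2 (105995623 to 117176894), with 37 lower and 6 higher. A window on chromosome 19 from MYH14 to ZNF880 (50188186 to 52385795), with 32 lower and 4 higher and a median of -1.62, held KLK5 and the zinc finger genes ZNF615 (10.5 ± 1.62 CPM in EGI-1, 1 count in HuCC-A1) and ZNF649 (4.36 ± 0.814 CPM, no count). Neighboring genes on a chromosome are not independent of each other, and these medians are given as a description.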

How the data were processed

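RNA of 15 CDX tumors from PBS-treated NRG mice was sequenced by the authors with a directional library kit after RNA extraction with Triazol. According to the submitters' processing notes, reads were handled with CASAVA, aligned by HISAT2 (2.0.5) and assigned to genes by featureCounts (1.5.0-p3). The deposited values are raw counts per gene, which sum to between 20001412 and 44067878 in the 10 tumors compared. How featureCounts was set for strand, which annotation it used and whether mouse reads had been removed is not given in the sources used here, so reads of overlapping antisense genes or conserved mouse transcripts could add to a gene's count. GENCODE release 29 held each of the 58735 gene identifiers and gave symbols, classes and coordinates (GRCh38).

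Counts were tested in R 4.3.3 by the quasi-likelihood F test of edgeR 4.0.16, after filterByExpr on the 3 models and TMM scaling, over all 15 tumors (12 residual degrees of freedom, common biological coefficient of variation 0.338), contrast HuCC-A1 minus EGI-1. P-values were Benjamini-Hochberg adjusted over 21019 genes. The labels do not say whether tumors of a model came from 1 injected batch of cells, so p-values measure the spread between these tumors only. Levels are CPM, in which TMM-adjusted totals put all libraries on 1 scale, comparable between tumors for a gene and not between genes of different length. Folds are ratios of mean CPM. A gene without counts in a model was given 3 counts over its 5 tumors, and ratios with 1 to 3 counts carry exact 95% Poisson intervals, both covering counting error only. Shares of counts were compared by two-sided exact permutation tests.

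The members, the 46 gene lists and the rules were chosen with earlier results of these data known. Genes named were the 15 highest and 15 lowest called protein-coding genes with at least 10 CPM in each tumor of the higher model and no overlap, the 8 highest and 8 lowest lncRNA genes with at least 2 CPM, for each list the 3 highest and 3 lowest called members with a mean of at least 2 CPM, the 5 genes with the largest difference in mean CPM in each direction, and genes near absent in a model. Genes of the matrix, EMT, Notch and stemness sets were not named, except cell type markers, NNMT, which is also on another list, and ANPEP. Counts over all genes and lists include them. For length, some were left out. A few others are not reported here. SOX21, ANPEP, CA9, ESR1, MIR548XHG, MIR4458HG, MIR4500HG and genes named within runs were chosen after their values were seen, as were the runs themselves. Lists were described by counts and medians, without a test of the list.

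Results were recomputed with DESeq2 1.42.0, with limma-voom (limma 3.58.1), with RLE factors, with a replicate block, without mitochondrial genes, without HuCC-T1, without the filter, with 10 or more counts asked of every library, and without each tumor in turn. Other thresholds were tried for near-absent genes, windows and runs. The pipeline was tested on simulated counts. Tumors treated with antibody were not analysed here. Figures were drawn with matplotlib 3.10.9.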

Additional observations from a re-analysis of the deposited data

Results flagged for a closer look

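In 275 groups of 5 tumors, 1 for each named gene with enough counts and model and for the shares of counts, 13 had a highest or lowest tumor whose gap to its neighbor was large for the range of the group. Chance flags about 1 in 20 groups, so this number is not above what chance gives.

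HuCC-A1 replicate 2 stood apart most often. It was highest for MAGEA1 (71.4 CPM, the others 32.9 to 43.4), the metallothionein MT1E (108 CPM, the others 18.6 to 31.8), KRT7 (1699 CPM, the others 800 to 1051) and KRT81 (95.7 CPM, the others 17.2 to 36.8), and lowest for NTS (236 CPM, the others 459 to 536). HuCC-A1 replicate 1 was highest for the mitochondrial genes MT-ND5 (5586 CPM, the others 1604 to 2192) and MT-CYB (8423 CPM, the others 2312 to 3799). HuCC-A1 replicate 5 was highest for FBP1 (15.1 CPM, the others 5.10 to 7.86) and the calprotectin subunit S100A9 (277 CPM, the others 102 to 147), and replicate 3 for HOXB5 (2.16 CPM, the others 0.750 to 1.10). Ribosomal protein genes took 2.53% of counts in HuCC-A1 replicate 4 and 3.85 to 4.12% in the others.

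Of EGI-1 tumors, replicate 1 was highest for CALML5 (132 CPM, the next highest 42.5) and replicate 5 lowest for TRPM2 (15.4 CPM, the others 25.7 to 29.8). In none of these 12 genes did the tumor reach the level of the other model.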

How the results depend on the processing

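All 294 genes named by the rule kept their direction under the alternatives that tested them, and 8 of 5101 values lost the call, for KRT5, MT-ND4L and MT-CYB, each when 1 tumor was left out. These genes were named for called differences in the same counts, so their kept direction is no independent support. When every library had to hold 10 or more counts, which removes genes without counts in a model by construction, 4169 genes were at least 2-fold apart, and 461 lncRNA genes were higher and 258 lower. Without a filter on low counts, 1721 lncRNA genes were higher. Genes near absent in EGI-1 numbered 73 at a minimum of 5 CPM and 22 at 20 CPM in HuCC-A1, where 75.0% of promoter windows were CG-rich, and those near absent in HuCC-A1 27 at up to 10 counts and 23 at 5 CPM. The highest window median was 1.75 with 30 genes and 1.49 with 100, and the lowest -2.89 and -1.25. Runs in HuCC-A1 numbered 1 at 2 CPM and 6 at up to 10 counts, and in EGI-1 24 at 0.5 CPM, 5 at 2 CPM and 16 at up to 10 counts. The cause of the other shifts was not tested.

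Leaving out each tumor gave 5640 to 6146 genes higher, 5155 to 5441 lower, 48 to 54 near absent in EGI-1 and 15 to 18 in HuCC-A1. DESeq2 called 6473 higher and 5651 lower, and limma-voom 6297 and 5721. Without mitochondrial genes, 5850 were higher and 5804 lower, with a median log2 fold change of 0.00. With 10 or more counts asked of each library, 4217 were higher and 4064 lower. The excess of genes higher in HuCC-A1 thus depended on the scaling and the filter. With a replicate block, 5989 genes were higher and 5388 lower, 7553 at least 2-fold apart, and 1056 lncRNA genes were higher and 701 lower. Tumors share only a number, with correlations of deviations from -0.091 to 0.093, and the block lost no call of a named gene. Depth limits what absence means, since a count of 0 over 5 tumors leaves room for a level of up to 3 counts.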

Other observations

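Of 84 ribosomal protein genes tested, 59 were not called, 21 were lower, a share near the 26.0% over all genes, and 4 (4.76%) were higher, against 29.4% over all genes. The median log2 fold change was -0.31. RPS20 was at 786, 671, 569, 629 and 393 CPM in EGI-1 and 197, 213, 172, 111 and 179 CPM in HuCC-A1 tumors, 3.57-fold lower (edgeR adjusted p = 1.5e-05), and RPS12 was 2.72-fold lower. RPL4 was 1.64-fold higher. Ribosomal protein genes have many processed copies in the genome, so counts of single members are uncertain.

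The calprotectin subunits S100A8 and S100A9, antimicrobial proteins of myeloid cells and of inflamed epithelium, were 55.2-fold and 18.5-fold higher in HuCC-A1. S100A9 was at 128, 102, 147, 106 and 277 CPM in HuCC-A1 and between 1.18 and 14.2 CPM in EGI-1 tumors. The integrin subunit ITGAM, of myeloid cells, was at 9.92 to 38.0 CPM against at most 0.349 CPM in EGI-1. Macrophage and leukocyte markers went both ways, with 4 of 8 tested higher and 2 lower. AIF1, C1QA and C1QB had no count in HuCC-A1. The median of the list was 1.66, and -1.02 with at least 10 counts asked of each library. The part of myeloid cells in the difference of S100A8 and S100A9 was not tested. ESR1, the estrogen receptor, was 19.2-fold higher, at 6.93 to 12.5 against 0.244 to 0.611 CPM.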
